A study of Mus musculus with 12 samples.

Results

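Fortified folic acid was compared with moderate folic acid over both genotypes of the study at once, and the genes described are those that moved the same way in wild type and in mutant cells. The comparison used all 12 of the 12 libraries of the series. The 6 fortified libraries (3 wild type and 3 mutant) were set against the 6 moderate libraries (3 wild type and 3 mutant), with genotype held as a covariate. All libraries came from polyadenylated RNA of primary mouse embryonic fibroblasts, cultures grown out of embryos at embryonic day 12.5. Mutant cells were homozygous for the L3P allele of Rsg1 (Rsg1L3P/L3P), a gene for a small GTPase-like protein that takes part in building the primary cilium. Moderate cells came from F3 mice on a diet with 2 ppm folic acid and grew in DMEM with 225 ng/mL folic acid. Fortified cells came from F3 mice on 10 ppm and grew in DMEM with 3600 ng/mL. Diet and medium changed together and cannot be told apart here; "folic acid level" below stands for both. Nothing in the labels ties a library to an embryo or a litter. The p-values thus measure only the spread between these libraries, and how much of it is technical is not known. Moderate wild type 1 held 40641 counts of Xist and 0 of Y-linked genes, and moderate wild type 2 held 2 and 7061. These libraries are therefore not repeats of 1 RNA sample.

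Folic acid is reduced in cells to tetrahydrofolate, which carries single carbon units. These units are used to make thymidylate and purines, and to remake methionine from homocysteine, which in turn feeds the methylation of DNA, RNA and proteins. The neural tube is known to depend on folate for its closure, and fibroblasts in culture are cells that divide and secrete a collagen-rich matrix.

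The libraries held 39339131 to 48475920 rounded counts, and 15186 of the 24279 genes in the table were tested. Levels are given as CPM, the count scaled to a common library size with edgeR's TMM factors. Fortified mutant 2, fortified mutant 3 and moderate wild type 1 were separate from the other 9 on the leading component (30.2% of the variance). On the second component (25.5%) the moderate libraries lay from 9.87 to 39.7 and the fortified libraries from -62.9 to 6.55, without overlap. The 3 libraries that stood apart also had the highest scores of skeletal muscle markers and of neuron markers, where a score is the mean over a list's genes of log2 CPM minus the gene's mean over 12 libraries. Without them 3734 of 15599 tested genes (23.9%) were called in the averaged comparison, 1964 higher and 1770 lower. Among the pathway lists described below, counts without them are given where the number of calls moved by over 1.5 times and was at least 5. Some lists that are not described moved as well, such as lysosome genes, from 1 higher and 3 lower to 3 higher and 13 lower. Fibroblast markers, among them Col1a1, were abundant in every library, with a summed level of 8804 to 32760 CPM. Rsg1, the mutated gene, had a median of 0.836 CPM at moderate and 0.802 CPM at fortified folic acid (log2 fold change -0.00072, adjusted p = 0.999).

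Averaged over genotypes, 2568 genes (16.9% of those tested) passed an adjusted p of 0.05 by edgeR's quasi-likelihood test with Benjamini-Hochberg adjustment. At an unadjusted p under 0.05 there were 5048 (33.2%). Of the called genes, 1230 (8.1%) were higher and 1338 (8.81%) were lower at fortified folic acid. The balance of the directions depended on scaling: 47.9% of calls were higher with TMM, 31.7% with library totals alone and 14.5% for limma on log2(TPM + 1), where the median of all genes shifted by -0.15. All 2568 called genes had the same sign in wild type and in mutant cells, against 10420 (68.6%) of all tested genes; part of this follows from choosing genes by their average. The typical change was moderate, with a median absolute log2 fold change of 0.70 among the called genes. Changes of at least 2-fold were seen for 373 higher and 304 lower genes. A test against a 1.5-fold change (glmTreat) called 11 genes, 7 higher and 4 lower, so that for most genes the size of the change was not resolved beyond that threshold.

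A stricter view asks that all 3 fortified libraries lie on the same side of all 3 moderate libraries within each genotype. Of the called genes 1283 (8.45% of all tested) met it, 594 higher and 689 lower. Among all tested genes, called or not, 1488 (9.8%) met it, 686 (4.52%) higher and 802 (5.28%) lower. Without regard to genotype, the 6 fortified and 6 moderate libraries did not overlap for 968 genes (6.37%), with fortified above for 421 (2.77%) and below for 547 (3.6%).

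Taken alone, the genotypes gave fewer calls. In wild type cells 4 genes passed (0.0263%, all higher; 2983 at an unadjusted p under 0.05), and in mutant cells 1053 (6.93%; 637 or 4.19% higher and 416 or 2.74% lower; 3891 at an unadjusted p under 0.05). Of the mutant calls 1010 (95.9%) had the same sign in wild type cells, which share no library with them. The 3 genes called in both genotypes, Cmklr1, Fkbp14 and Sec24d, are 75% of the wild type calls and 0.285% of the mutant calls, and 1718 genes passed on the average while passing in neither genotype alone. Across all tested genes, which are not independent replicates, the log2 fold changes of the 2 genotypes had a Pearson r of 0.496 and a Spearman rho of 0.488.

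**Figure D1:**
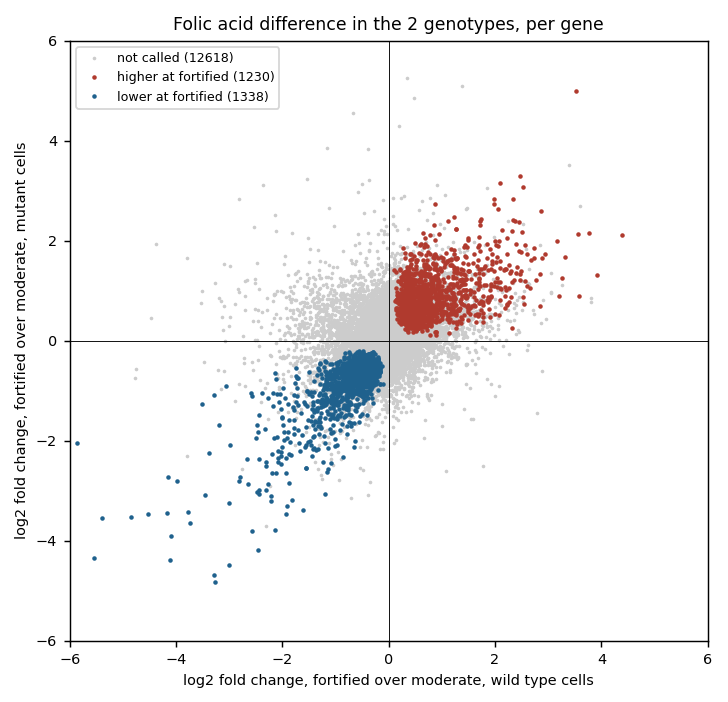
Each point is 1 tested gene, with the log2 fold change (fortified over moderate) in wild type cells on the horizontal axis and in mutant cells on the vertical axis; red and blue points are the 1230 higher and 1338 lower genes of the averaged comparison. Called genes lie in the lower left and upper right quadrants, where both genotypes have the same sign, and 15 genes fall outside the plotted range of 6 log2 units.

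Whether the folic acid difference itself differed between genotypes was tested by the interaction term. By edgeR 0 genes passed (lowest adjusted p = 0.708), 1015 (6.68%) had an unadjusted p under 0.05, DESeq2 called 8 and limma-voom called 0. The smallest interaction p belonged to Cmklr1, the receptor for the chemoattractant chemerin. Its level ran from 6.09 through a median of 11.3 to 18.5 CPM at moderate and from 24.9 through 29.2 to 30.9 CPM at fortified folic acid. The levels did not overlap, and Cmklr1 passed in both genotypes, with a log2 fold change of 2.09 in wild type (adjusted p = 0.00086) and 0.80 in mutant cells (adjusted p = 0.0245). Leaving out clustered protocadherins, the next by interaction p were the cartilage-type collagen Col11a1 (1.46 in wild type and -0.14 in mutant cells), the replication factor Gins2 (0.09 and 1.41) and the collagen-binding integrin Itga11 (2.63 and -0.08). None of these differences between genotypes passed the adjustment.

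The gene with the smallest p was Crip1, a small LIM-domain protein (ENSMUSG00000006360.11, mm10 chr12:113146316-113153879, plus strand). Its level was 3.85 to 11.7 CPM at moderate folic acid, with a median of 4.49, and 15.7 to 47.7 CPM at fortified folic acid, with a median of 30.1. Every fortified library lay above every moderate one, a 5.21-fold difference (log2 fold change 2.38, SE 0.24, adjusted p = 0.00203), with 2.37 in wild type and 2.39 in mutant cells. Thbs4, a thrombospondin of tendon matrix, had levels of 8.2 to 32.2 CPM (median 14.0) at moderate and 37.3 to 227 CPM (median 117) at fortified folic acid. It rose 7.77-fold (log2 fold change 2.96, SE 0.49, adjusted p = 0.00563), again without overlap. Hgf, the growth factor that signals through the Met receptor, measured 4.45 to 10.3 CPM (median 6.48) and 15.7 to 38.5 CPM (median 25.5). The difference was 3.93-fold (adjusted p = 0.00203), and its size was close in wild type (2.06) and mutant cells (1.89) on the log2 scale.

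Other genes with large rises whose 6 fortified libraries all lay above the 6 moderate ones were secreted or matrix proteins and regulators of growth. Secreted ones were the collagen-binding proteoglycan Fmod (log2 fold change 2.20), the calcification inhibitor Mgp (1.94) and the heparin-binding growth factor Ptn (1.82). Regulators were Rgcc (2.23), a regulator of the cell cycle, and Mxd3 (1.89), a partner of the Myc network's Max. The serine protease inhibitor Serpina3g (2.08) and the vasopressin receptor Avpr1a (1.82) also rose. Bcl3 (1.81) and Tspo (1.80), a protein of the outer mitochondrial membrane, did not pass without fortified mutant 1. Smaller but tight differences included Fkbp14, a prolyl isomerase that folds procollagen in the endoplasmic reticulum (ER). It measured 24.8 to 32.1 CPM (median 25.6) at moderate and 47.9 to 64.6 CPM (median 54.4) at fortified folic acid. This was a 2.02-fold rise (log2 fold change 1.01, SE 0.11, adjusted p = 0.00203), and Fkbp14 was among the 3 genes called in both genotypes.

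Among separate genes with a mean of at least 5 CPM at moderate folic acid, the strongest fall was that of Ppp1r16b, a regulatory subunit of protein phosphatase 1 (ENSMUSG00000037754.13, mm10 chr2:158665398-158766334, plus strand). Its level was 1.56 to 32.3 CPM at moderate folic acid, with a median of 14.3, and 0.385 to 1.32 CPM at fortified folic acid, with a median of 0.758. The levels did not overlap, and the moderate level was 19.2-fold higher (log2 fold change -4.26, SE 0.52, adjusted p = 0.00203). Runx1t1, a transcriptional corepressor, held a narrow range of 54.6 to 63.8 CPM (median 60.3) at moderate and 27.5 to 37.1 CPM (median 33.1) at fortified folic acid. Its log2 fold change was -0.86 (SE 0.09, adjusted p = 0.00203), with -0.79 in wild type and -0.94 in mutant cells. Mfsd7c, a membrane transporter, fell from a median of 7.33 CPM to 2.20 CPM (log2 fold change -1.76, adjusted p = 0.00203).

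Further genes that fell with separate levels within each genotype had varied roles. They included the metabolic transcription factor Klf15 (-2.75), the secreted glycoprotein stanniocalcin 2 (Stc2, -2.29) and the adenovirus receptor and junction protein Cxadr (-1.78). Dgat2, which makes triglyceride, fell by 1.80 on the log2 scale, and the stress transcription factor Atf3 fell by 2.07. Mbd1, a reader of methylated CpG, had 38 to 48.7 CPM (median 43.6) at moderate and 22.0 to 27.8 CPM (median 24.5) at fortified folic acid, a log2 fold change of -0.81 (SE 0.09, adjusted p = 0.00203). Its levels did not overlap between folic acid levels.

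**Figure D2:**
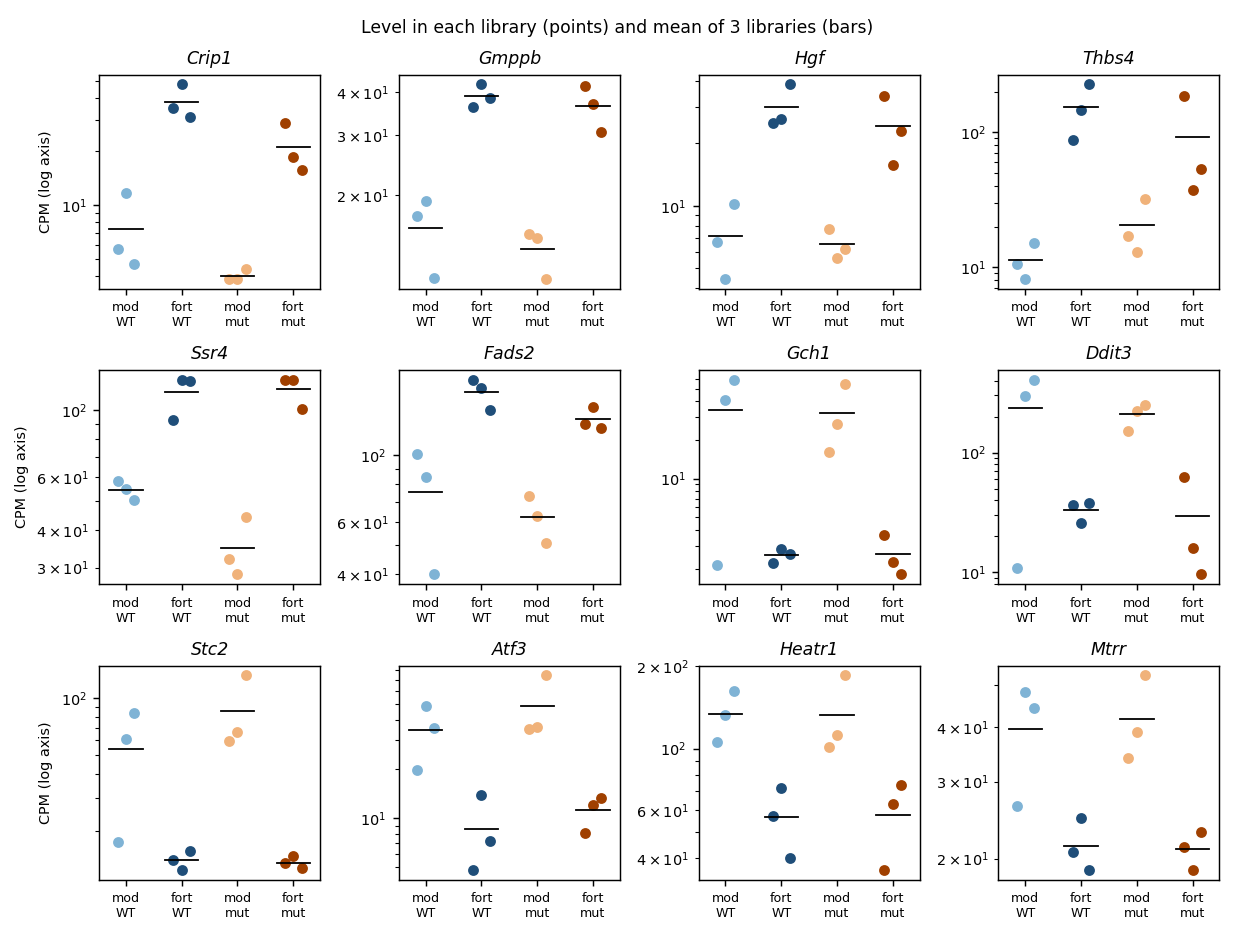
Level in CPM (log axis, a separate range per panel) of 12 genes in each library, with 3 points per group and a bar at the group mean; mod and fort are moderate and fortified folic acid, WT and mut the genotypes. Crip1, Gmppb, Hgf, Thbs4 and Ssr4 were higher in all 6 fortified libraries, while for Gch1 and Ddit3 moderate wild type 1 sat at the level of the fortified libraries.

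Read by gene list, the lists with the highest shares of higher calls were those of lipid synthesis, the secretory pathway and the respiratory chain, and those with the highest shares of lower calls were ribosome biogenesis and the ATF4 stress response. Beside these shares stand those over all tested genes, 8.1% higher and 8.81% lower, with a median log2 fold change of 0.00. Of all calls, 594 of the 1230 higher and 689 of the 1338 lower had separate libraries within both genotypes.

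**Figure D3:**
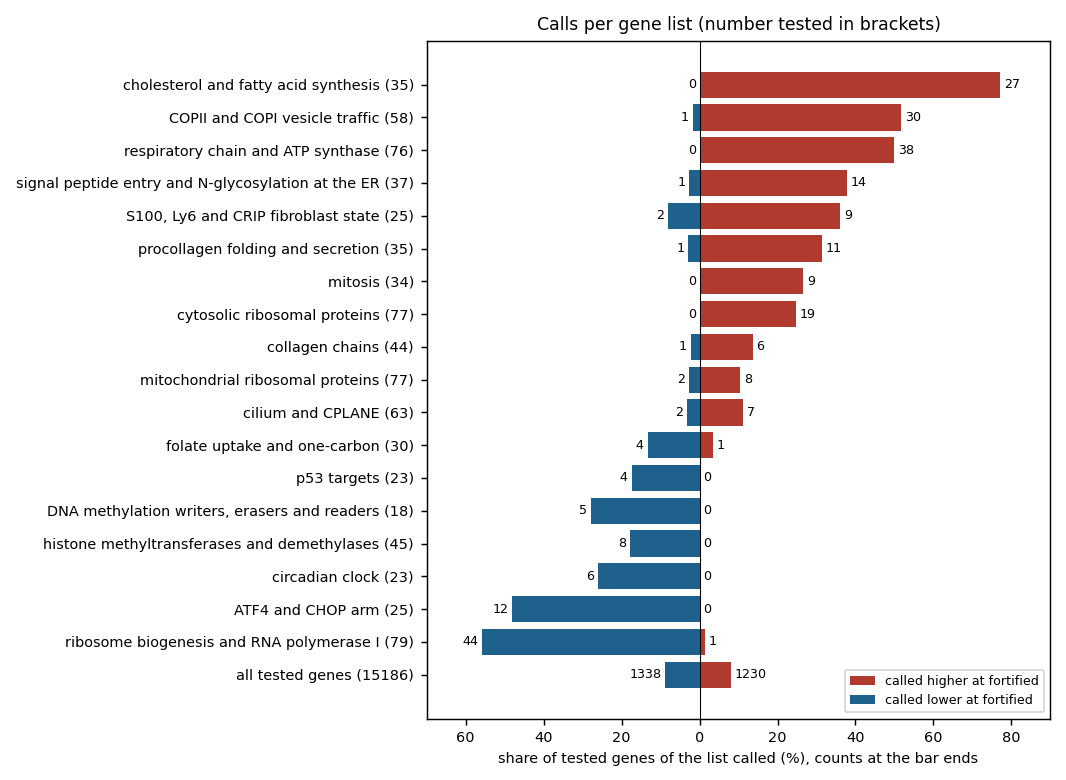
Bars give the share (%) of the tested genes of a list that were called higher (red, to the right) or lower (blue, to the left) at fortified folic acid, with the counts at the bar ends and the number tested in brackets. Cholesterol and fatty acid synthesis had 27 of 35 genes higher and ribosome biogenesis 44 of 79 lower, where all tested genes had 1230 higher and 1338 lower.

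Cholesterol and fatty acid synthesis genes rose broadly. Of 35 tested genes 27 (77.1%) were called higher and 0 lower. All 35 were positive in both genotypes, with a median log2 fold change of 0.94 (0.67 in wild type and 1.18 in mutant cells). The libraries were separate in both genotypes for 11 of the 27. The calls ran along the mevalonate and sterol pathway, from Acat2 and Hmgcs1 through Mvk, Mvd, Idi1 and Fdps to Lss, Cyp51 and Dhcr7. Single libraries left out ended some of these calls, namely Acat2 and Idi1 without moderate mutant 1, 2 or 3, Hmgcs1 without moderate mutant 2 or 3, Cyp51 without moderate mutant 3 and Lss without each of 10 libraries. They also included Scd1, Scd2, Fads1 and Fads2, which put double bonds into fatty acids. Scd2 measured 552 to 1152 CPM (median 988) at moderate and 1624 to 2353 CPM (median 1842) at fortified folic acid. The ranges were separate, and the difference was 2.07-fold (log2 fold change 1.05, SE 0.19, adjusted p = 0.0063).

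Fads2, which desaturates polyunsaturated fatty acids, measured 40.0 to 101 CPM (median 68.0) at moderate and 124 to 179 CPM (median 144) at fortified folic acid. Its levels were separate too, a 2.14-fold difference (log2 fold change 1.10, SE 0.19, adjusted p = 0.00601). The sterol-sensing regulators Srebf1 (0.47), Srebf2 (0.63) and Insig1 (1.21) rose as well, although Srebf2 lost its call when any 1 of 10 libraries was left out, Srebf1 did not pass on the TPM scale, and Insig1 did not pass without moderate mutant 2 or moderate mutant 3. The sterol enzyme Sqle (0.59, adjusted p = 0.0744) was positive without passing. The score of the list was 0.199 to 0.814 at fortified and -1.04 to 0.380 at moderate folic acid, where moderate wild type 1 held the highest moderate value and moderate wild type 3 the lowest. Without the 3 libraries that stand apart the median was 0.97.

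Promoters of these genes are shown because the genes moved together. RefSeq (GRCm38.p6) held a window from 250 bases before to 50 bases after the start of 11371 tested genes, and 24 of the 35 lipid genes; where a gene had several windows the first listed was used. The letters CCAAT, on either strand, occurred in 19 of these 24 windows (79.2%), against 38.1% of all windows, 43.1% for genes called higher and 32.5% for those called lower. The share was not particular to lipid genes: it was 78.6% for mitosis genes and 94.4% for ER chaperones, most of which were not called. A strict form of the sterol regulatory element, searched on both strands, was in 0 of the 24 and in 20 windows of all (0.176%). Other forms of this element were not searched. With so rare a match among all windows, 0 of 24 cannot tell whether lipid genes lack the element. A match of letters is a description and not a shown binding site. The 250 bases before the start of mevalonate decarboxylase (Mvd, chr8:122443423-122443672, minus strand) and mevalonate kinase (Mvk, chr5:114444019-114444268, plus strand) read as follows, 5′ to 3′ along the gene, with CCAAT or its reverse complement in capitals.
Mvd: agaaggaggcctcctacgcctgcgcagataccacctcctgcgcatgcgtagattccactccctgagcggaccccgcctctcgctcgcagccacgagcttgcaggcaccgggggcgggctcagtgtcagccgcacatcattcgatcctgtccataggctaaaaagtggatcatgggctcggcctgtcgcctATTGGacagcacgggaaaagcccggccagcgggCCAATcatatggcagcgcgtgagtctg
Mvk: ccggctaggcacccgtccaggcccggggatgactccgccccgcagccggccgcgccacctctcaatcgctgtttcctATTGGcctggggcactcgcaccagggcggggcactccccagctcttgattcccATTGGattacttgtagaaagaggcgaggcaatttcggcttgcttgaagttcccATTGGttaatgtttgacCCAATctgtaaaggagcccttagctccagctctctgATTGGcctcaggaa
Mvd held 2 such matches and Mvk 5. Mvk measured 12.4 to 38.5 CPM (median 13.6) at moderate and 31.5 to 58.4 CPM (median 41.1) at fortified folic acid, a log2 fold change of 1.19 (adjusted p = 0.00872), with moderate wild type 1, the highest moderate library, as the one that overlapped. Mvd rose by 0.96 on the log2 scale (adjusted p = 0.00719).

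Genes of the early secretory pathway rose together with smaller and more even changes. Among vesicle coat and cargo genes between ER and Golgi (COPII and COPI), 30 of 58 (51.7%) were higher and 1 (1.72%) lower, with medians of 0.38 in wild type and 0.37 in mutant cells. For 27 of the 30 the libraries were separate in both genotypes, against 594 of all 1230 higher calls. The list was chosen after the averaged result was seen, so its direction is a description. Sec24d, the coat subunit that selects cargo such as procollagen, measured 89.8 to 133 CPM (median 106) at moderate and 166 to 234 CPM (median 215) at fortified folic acid. Its levels did not overlap (log2 fold change 0.91, SE 0.13, adjusted p = 0.00367). Kdelr3, a receptor that returns ER proteins from the Golgi, rose 2.35-fold, from a median of 47.5 to 120 CPM. The exception was the Golgi SNARE Gosr1, which fell by 0.39 on the log2 scale and did not pass without moderate mutant 3.

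Entry into the ER followed the same direction. In the list of signal peptide entry and N-glycosylation 14 of 37 genes (37.8%) were higher and 1 (2.7%) lower. The libraries were separate in both genotypes for 10 of the 14. This list too was chosen after the averaged result was seen, so its direction is a description. The lower call was the translocon paralog Sec61a2, lost when any 1 of 11 libraries was left out. Ssr4, a subunit of the translocon-associated complex (ENSMUSG00000002014.12, chrX:73787028-73790830, plus strand), measured 28.5 to 58.1 CPM (median 47.2) at moderate and 92.6 to 126 CPM (median 126) at fortified folic acid. The levels were separate, with a 2.67-fold difference (log2 fold change 1.41, SE 0.16, adjusted p = 0.00203). The translocon subunits Sec61b (0.98) and Sec61g (1.16) and the oligosaccharyltransferase subunits Ostc (1.04) and Dad1 (0.64) rose too. Gmppb, which makes the GDP-mannose used in glycosylation, went from 11.4 to 19.2 CPM (median 15.2) to 30.7 to 42.3 CPM (median 37.7). No library overlapped between levels, and the rise was 2.53-fold (adjusted p = 0.00203).

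The ER stress transcription factor Xbp1 rose 2.01-fold, while ER chaperones as a group mostly did not pass. Xbp1 (ENSMUSG00000020484.18, chr11:5520659-5525893, plus strand) measured 41.5 to 71.9 CPM (median 54.0) at moderate and 97.0 to 123 CPM (median 107) at fortified folic acid. All fortified libraries were above all moderate ones (log2 fold change 1.01, SE 0.13, adjusted p = 0.00214). Of 20 genes of ER chaperones and ER-associated degradation 3 (15%) were higher, namely Xbp1, the disulfide isomerase P4hb (0.72) and Edem1 (0.75), and 0 were lower. This list was likewise chosen after the averaged result was seen. P4hb and Edem1 did not pass on the TPM scale. The main ER chaperone Hspa5 was at -0.24 (adjusted p = 0.425). Gene-level counts do not separate the spliced form of Xbp1 from the unspliced one.

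Matrix lists had positive medians; these were larger in wild type cells, although no gene's difference between genotypes passed by edgeR. Of 44 collagen chains 6 (13.6%) were higher and 1 (2.27%) lower, with a median log2 fold change of 0.74 in wild type and 0.09 in mutant cells. Among the 6 higher chains 1 had separate libraries in both genotypes. Col1a1, the main fibrillar collagen chain, measured 1436 to 4658 CPM (median 3832) at moderate and 4934 to 13920 CPM (median 8380) at fortified folic acid. The levels did not overlap (log2 fold change 1.26, adjusted p = 0.0276), although the call was lost without fortified wild type 3, moderate mutant 2 or fortified mutant 1, and on the TPM scale. Col6a3, a chain of the beaded-filament collagen VI, rose by 1.48 (adjusted p = 0.0202), with 2.23 in wild type and 0.72 in mutant cells. The median of the collagen list was 0.308 without moderate wild type 3, and 1.06 without the 3 libraries that stand apart, with 14 chains then called higher.

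In procollagen folding and secretion 11 of 35 genes (31.4%) were higher, among them the prolyl isomerase Ppib (0.93) and the collagen chaperone Serpinh1 (0.55; not passing on the TPM scale), and 1 (2.86%) was lower, the prolyl 3-hydroxylase P3h2 (-1.09). Of 16 small leucine-rich proteoglycans 3 rose (Fmod, Prelp at 2.34 and Aspn at 1.48), and without the 3 libraries that stand apart 9 did. Of 16 thrombospondins, tenascins and related proteins 5 rose, including Postn (1.17). Elastic fibre genes had 5 of 21 higher, with a median of 0.82 in wild type and -0.16 in mutant cells. The sign was the same in both genotypes for 11 of the 21, and 0 of the called genes were separate in both. The called Eln, Emilin1, Mfap2 and Mfap4 lost their calls when any 1 of 8, 6, 2 and 2 libraries was left out. Fibroblast markers moved with these lists: 3 of 14 were higher and 0 lower, with a summed level of 8804 to 14770 CPM at moderate and 13950 to 32760 CPM at fortified folic acid; without the 3 libraries 8 were higher. In bulk RNA more cells of a type and more RNA per cell cannot be told apart, and the part of the markers in the matrix result was not tested.

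Mitosis genes were all positive and passed in part. Of 34 tested genes 9 (26.5%) were higher and 0 lower, and the median was 0.30 in wild type and 1.19 in mutant cells. The libraries were separate in both genotypes for 3 of the 9. Pttg1, or securin, an inhibitor of separase, the protease that parts sister chromatids at anaphase, measured 5.19 to 15.8 CPM (median 5.70) at moderate and 18.7 to 28.8 CPM (median 22.0) at fortified folic acid. The levels were separate, a 2.89-fold difference (log2 fold change 1.53, SE 0.28, adjusted p = 0.00696). Moderate wild type 1 had the highest moderate score of the list (0.64) and lay above 5 of the 6 fortified libraries. Without the 3 libraries that stand apart the median was 0.87 and 24 genes were called higher. DNA replication genes had 3 of 38 higher and 1 lower; without the 3 libraries these were 12 and 1, and with a trend on transcript length removed 0 and 1.

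**Figure D4:**
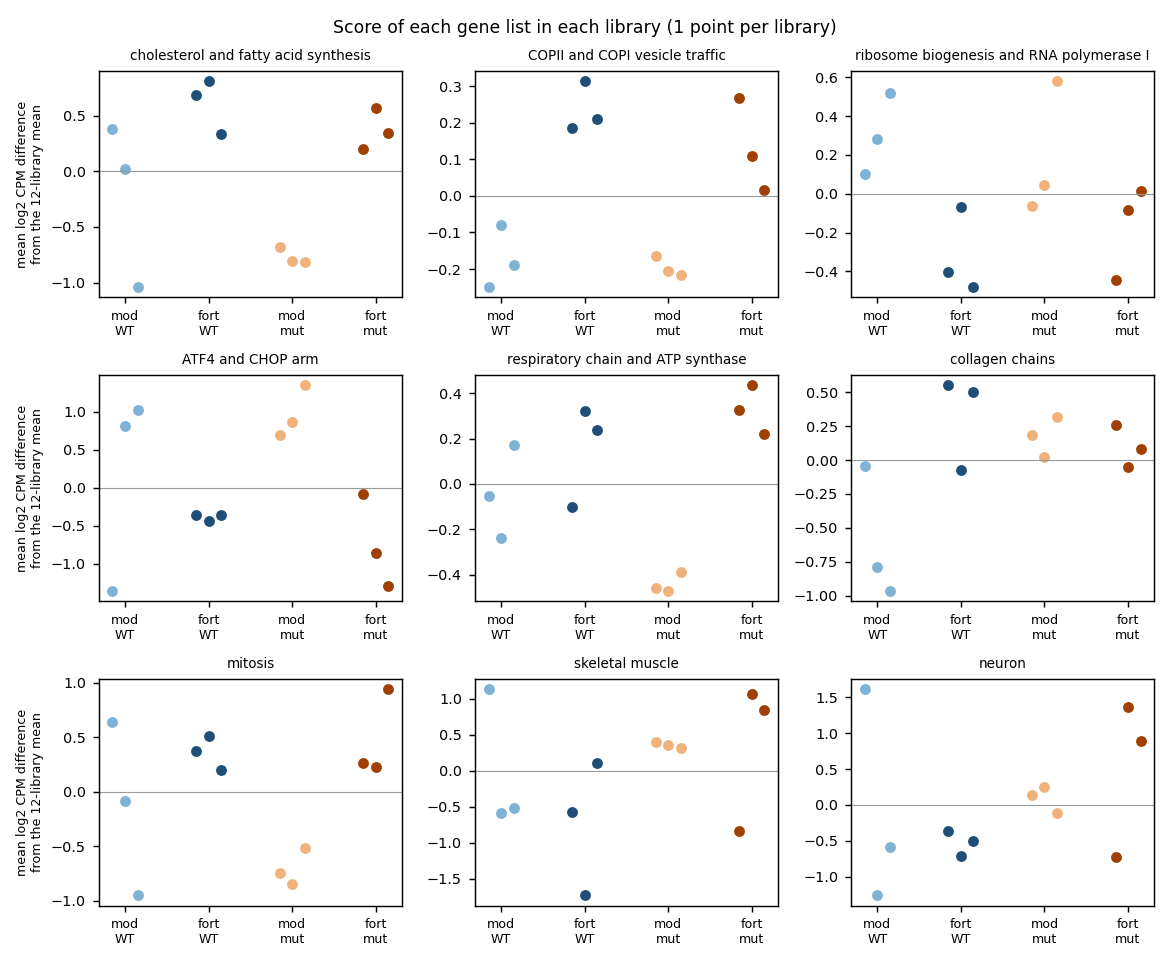
Score of 9 gene lists in each library (mean over a list's genes of log2 CPM minus the gene's mean over 12 libraries), 3 points per group. The COPII and COPI scores run from -0.249 to -0.08 at moderate and from 0.0156 to 0.314 at fortified folic acid without overlap, while the muscle and neuron scores are highest in fortified mutant 2, fortified mutant 3 and moderate wild type 1.

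Genes of the respiratory chain and the ribosome rose in part, with larger medians in mutant cells, and their calls went with transcript length. Of 76 subunits of the respiratory chain and ATP synthase 38 (50%) were higher and 0 lower, with a median of 0.17 in wild type and 0.81 in mutant cells. The libraries were separate in both genotypes for 10 of the 38. Uqcrh, a hinge subunit of complex III, measured 52.2 to 110 CPM (median 66.1) at moderate and 117 to 207 CPM (median 182) at fortified folic acid, a 2.40-fold rise without overlap (adjusted p = 0.00514). Of 77 cytosolic ribosomal protein genes 19 (24.7%) were higher and 0 lower (median 0.14 in wild type and 0.81 in mutant cells), and 0 of the 19 were separate in both genotypes. Ribosomal protein genes have many near-identical pseudogene copies, so that counts of single members are uncertain. Transcripts of these lists are short. Relative transcript length was taken from the ratio of counts to TPM in the deposited data. Tested genes were split by it into 4 classes of equal size. In the shortest class lay 69 of the 76 respiratory chain genes and 70 of the 77 ribosomal protein genes.

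Length went with the direction of the calls over the whole table. In the shortest class 14.9% were called higher and 3.27% lower, and in the longest class 3.42% higher and 15.2% lower. The median log2 fold change fell from 0.22 in the shortest to -0.17 in the longest class. In mutant cells it went from 0.38 to -0.19 and in wild type cells from 0.05 to -0.12. With each library's trend on length removed, an alternative added after the data were seen, 2094 genes were called (973 higher and 1121 lower), of which 1790 were called before. The respiratory chain then had 16 genes higher and 2 lower, with a median of 0.19, and the ribosomal proteins 7 higher (median 0.14); without the 3 libraries that stand apart 6 ribosomal proteins were higher. Cholesterol and fatty acid genes had 29 higher (median 0.93), COPII and COPI genes 26 higher and 0 lower (0.34), mitosis genes 10 higher (0.75) and collagen chains 10 higher and 1 lower (0.58).

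**Figure D5:**
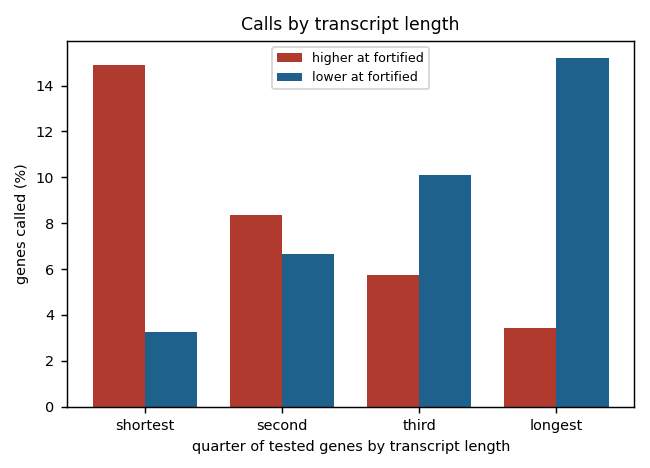
Share (%) of tested genes called higher (red) or lower (blue) at fortified folic acid in each of 4 classes by relative transcript length. Length was taken from the ratio of counts to TPM in the deposited data. Higher calls run from 14.9% in the shortest to 3.42% in the longest class, and lower calls from 3.27% to 15.2%.

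Genes of the ATF4 and CHOP arm of the stress response were lower at fortified folic acid. ATF4 is translated when amino acids are short or the ER is stressed, and switches on genes of amino acid supply and, with CHOP, of cell death. Of 25 tested genes in this list, chosen after the averaged result was seen, 12 (48%) were called lower and 0 higher. The libraries were separate in both genotypes for 2 of the 12. All 25 were negative, with a median of -0.63 in wild type and -1.51 in mutant cells. A wider list of ATF4 and the unfolded protein response, which shares members with it, had 7 of 38 genes (18.4%) lower and 2 (5.26%) higher, the latter Xbp1 and Edem1, with a median of -0.40, and 13 lower and 3 higher without the 3 libraries. Ddit3, which encodes CHOP, measured 10.8 to 406 CPM (median 237) at moderate and 9.64 to 63.1 CPM (median 31.1) at fortified folic acid. Its log2 fold change was -2.82 (SE 0.66, adjusted p = 0.0155). The overlap came from moderate wild type 1, which had the lowest moderate value, while the other 5 moderate libraries lay above every fortified library.

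Among the moderate libraries the same single one stood out for most of this list. Its score was -1.36 in moderate wild type 1, the lowest of all 12 libraries, and 0.697 to 1.35 in the other 5 moderate libraries, against -1.29 to -0.0838 at fortified folic acid. Ppp1r15a, the phosphatase subunit that restores translation, ran from 67.8 to 447 CPM (median 259) at moderate and from 44.6 to 73.6 CPM (median 60.3) at fortified folic acid (log2 fold change -2.06, adjusted p = 0.00439), with overlap through moderate wild type 1. Stc2 measured 17.7 to 132 CPM (median 63.9) against 12.5 to 15.8 CPM (median 13.8), and Atf3 19.8 to 74.7 CPM (median 36.0) against 4.82 to 13.9 CPM (median 10.1), both without overlap. Calls were made also for the cystine transporter Slc7a11 (-1.89), the arginine transporter Slc7a1 (-1.15) and the tryptophanyl-tRNA synthetase Wars (-1.68). Atf4 itself (-0.39, adjusted p = 0.175), the asparagine synthetase Asns (-0.71, adjusted p = 0.221) and the pseudokinase Trib3 (-1.71, adjusted p = 0.131) did not pass. Without the 3 libraries that stand apart, moderate wild type 1 among them, 19 genes of the list were called lower.

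The core of the composite element bound by ATF4, written as TGATGNAA on either strand, occurred in the promoter windows of 8 of 21 genes of the list (38.1%), against 2.24% of all windows. Members were put on the list as genes of the ATF4 arm, so its share is no independent result. Genes called lower as a whole held the element in 2.37% and those called higher in 1.7%. Of the 8 genes, Atf3 and Slc7a11 were called lower, and Aars, Asns, Chac1, Gars, Nupr1 and Trib3 were negative without passing. The 250 bases before the start are shown for the first pair, Atf3 (chr1:191183334-191183583, minus strand) and Slc7a11 (chr3:50443614-50443863, minus strand) of GRCm38.p6, from RefSeq, 5′ to 3′ along the gene, with the matches in capitals.
Atf3: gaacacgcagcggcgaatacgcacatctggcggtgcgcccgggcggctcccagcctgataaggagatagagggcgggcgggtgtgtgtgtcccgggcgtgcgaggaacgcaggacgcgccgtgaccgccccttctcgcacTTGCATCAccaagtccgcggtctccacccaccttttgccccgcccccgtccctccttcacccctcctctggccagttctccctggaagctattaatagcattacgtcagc
Slc7a11: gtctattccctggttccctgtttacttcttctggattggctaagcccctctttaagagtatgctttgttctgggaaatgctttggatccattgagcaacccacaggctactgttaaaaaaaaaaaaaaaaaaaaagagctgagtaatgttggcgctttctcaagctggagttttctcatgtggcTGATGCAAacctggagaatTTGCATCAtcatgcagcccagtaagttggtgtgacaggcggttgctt
Atf3 held 1 match and Slc7a11 held 2.

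Ribosome biogenesis genes fell broadly and in both genotypes. These genes make and process ribosomal RNA in the nucleolus. Of 79 tested genes in a list chosen after the averaged result was seen 44 (55.7%) were lower and 1 (1.27%) higher, the small ribonucleoprotein subunit Nop10 (0.69; lost when any 1 of 6 libraries was left out), with medians of -0.63 in wild type and -0.44 in mutant cells. For 28 of the 44 the libraries were separate in both genotypes, against 689 of all 1338 lower calls. Heatr1, needed for transcription of ribosomal RNA genes (ENSMUSG00000050244.9, chr13:12395027-12440289, plus strand), measured 102 to 185 CPM (median 122) at moderate and 36.3 to 73.5 CPM (median 60.1) at fortified folic acid. The levels did not overlap (log2 fold change -1.22, SE 0.22, adjusted p = 0.0061), with -1.24 in wild type and -1.20 in mutant cells. Polr1a, the largest subunit of RNA polymerase I, fell by 1.06 on the log2 scale, from a median of 166 to 82.2 CPM.

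Nop2, an RNA methyltransferase, measured 124 to 277 CPM (median 192) at moderate and 54.2 to 104 CPM (median 87.3) at fortified folic acid, without overlap (log2 fold change -1.22, adjusted p = 0.00659). Nucleolin (Ncl) fell from a median of 1247 to 759 CPM, also without overlap, but did not pass with the length trend removed. With that trend removed the list had 44 lower and 0 higher calls, and without the 3 libraries that stand apart 49 lower. Myc, a transcription factor known to drive these genes, measured 95.3 to 313 CPM (median 163) at moderate and 55.4 to 104 CPM (median 63.9) at fortified folic acid, where fortified wild type 2 lay above moderate wild type 1 (log2 fold change -1.28, adjusted p = 0.00932).

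The E-box CACGTG, the same on both strands, was in the windows of 15 of 68 ribosome biogenesis genes (22.1%), against 9.91% of all windows, 14.4% for genes called lower and 7.23% for genes called higher. It is shown for 2 called members, Nop2 (chr6:125131633-125131882, plus strand) and the processing factor Rbm19 (chr5:120116263-120116512, plus strand), as the 250 bases before the start in GRCm38.p6, from RefSeq, 5′ to 3′, with the match in capitals.
Nop2: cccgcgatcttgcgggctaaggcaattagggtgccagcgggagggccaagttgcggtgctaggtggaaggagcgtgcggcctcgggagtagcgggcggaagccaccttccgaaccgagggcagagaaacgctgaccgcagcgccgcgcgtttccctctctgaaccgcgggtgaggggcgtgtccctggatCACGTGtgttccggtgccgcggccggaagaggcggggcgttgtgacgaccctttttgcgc
Rbm19: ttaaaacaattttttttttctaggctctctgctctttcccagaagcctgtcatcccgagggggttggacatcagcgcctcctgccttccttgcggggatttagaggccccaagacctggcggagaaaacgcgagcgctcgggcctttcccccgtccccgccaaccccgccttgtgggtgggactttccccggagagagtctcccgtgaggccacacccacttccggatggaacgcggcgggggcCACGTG
Rbm19 measured 48.5 to 71.1 CPM (median 57.3) at moderate and 26.9 to 38.9 CPM (median 37.0) at fortified folic acid, again without overlap.

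Genes of folate uptake and use gave few calls that stood without each library. Of 30 tested genes 1 (3.33%) was higher and 4 (13.3%) lower, with a median of -0.17. Without the 3 libraries that stand apart 3 were higher and 9 lower, and with the length trend removed 1 was higher and 2 lower. Mtrr, the reductase that keeps methionine synthase active (ENSMUSG00000034617.7, chr13:68560780-68582149, minus strand), measured 26.4 to 52.5 CPM (median 41.5) at moderate and 18.8 to 24.7 CPM (median 21.0) at fortified folic acid. Its levels did not overlap (log2 fold change -0.94, SE 0.16, adjusted p = 0.00601), and the size was close in wild type (-0.89) and mutant cells (-0.99). Methionine synthase, Mtr, was lower by less, with a log2 fold change of -0.44 (adjusted p = 0.0448), and lost its call when any 1 of 10 libraries was left out. Shmt1 (-0.87, adjusted p = 0.0476), Atic (-0.53, adjusted p = 0.0411) and Aldh1l1 (1.57, adjusted p = 0.0314) lost theirs when any 1 of 9, 8 and 7 libraries was left out. Aldh1l1, the enzyme that releases one-carbon units as carbon dioxide, was thus the single gene of the list called higher.

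Folate transporters and several further enzymes did not pass. The log2 fold changes were 0.16 for the folate receptor Folr1 (adjusted p = 0.836), -0.40 for the reduced folate carrier Slc19a1 (0.227) and 0.36 for the proton-coupled transporter Slc46a1 (0.263). Thymidylate synthase, Tyms, had 0.80 (adjusted p = 0.062), and the mitochondrial enzymes Shmt2 and Mthfd2 had -0.86 (0.0925) and -0.72 (0.0649). In the linked list of methionine, transsulfuration and serine 2 of 18 genes were higher (Gamt and Mat2b) and 2 lower (Cth and Mat2a, the latter lost when any 1 of 6 libraries was left out). Cth, the enzyme that makes cysteine from cystathionine, ran from 8.78 to 174 CPM (median 78.6) at moderate and from 8.27 to 27.3 CPM (median 17.3) at fortified folic acid (log2 fold change -2.41, adjusted p = 0.0126), again with overlap through moderate wild type 1, and -2.43 without the 3 libraries. Gamt, which uses S-adenosylmethionine to make creatine, rose without overlap, from a median of 4.99 to 13.2 CPM (log2 fold change 1.38, adjusted p = 0.0128).

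Gch1, the first enzyme of tetrahydrobiopterin synthesis, showed one of the largest falls. It measured 2.14 to 58.7 CPM (median 33.8) at moderate and 1.80 to 3.65 CPM (median 2.42) at fortified folic acid. The log2 fold change was -3.69 (SE 0.60, adjusted p = 0.00525), with -3.73 in wild type and -3.66 in mutant cells. Again the lowest moderate value was that of moderate wild type 1, and the other 5 moderate libraries lay above all fortified ones; without the 3 libraries that stand apart the log2 fold change was -3.84. Pts, the next enzyme of the pathway, rose by 0.70 on the log2 scale (adjusted p = 0.0319) and lost its call when any 1 of 6 libraries was left out. Among 8 genes of the pathway these were the calls, 1 in each direction.

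Of 18 genes of DNA methylation 5 (27.8%) were lower and 0 higher, and of 45 histone methyltransferases and demethylases 8 (17.8%) were lower and 0 higher. Besides Mbd1, the DNA list's calls were Dnmt3b (-0.64), Tet3 (-0.51), Zbtb38 (-0.70) and Dnmt3l, a low gene at 0.00 to 1.24 CPM at moderate and at most 0.0633 CPM at fortified folic acid. Dnmt3b and Zbtb38 lost their calls when any 1 of 10 libraries was left out, and Tet3 when any 1 of 8 was. The maintenance methyltransferase Dnmt1 (0.26, adjusted p = 0.503) and Dnmt3a (0.03, adjusted p = 0.931) did not pass. Among histone enzymes, the demethylase Kdm3a fell by 0.58 (adjusted p = 0.0093) and Suv420h1, which methylates histone H4, by 0.61 (adjusted p = 0.00601). Of the histone genes 32 of 45 lie in the longest class, where 15.2% of all genes were called lower. With the length trend removed the histone list had 3 higher and 4 lower, so that its calls were no longer in 1 direction, and the DNA list had 2 lower and 0 higher.

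Zinc finger factors by symbol (Zfp, Zbtb, Zkscan and Zscan), a pattern chosen after the data were seen, had 64 of 408 genes (15.7%) lower and 8 (1.96%) higher, with a median of -0.16. Of 23 circadian clock genes, a list also chosen afterwards, 6 (26.1%) were lower and 0 higher. The median was 0.03 in wild type and -0.25 in mutant cells, and 14 of the 23 had the same sign in both. In this list 43.5% of genes are in the longest class, and with the length trend removed 5 were lower and 0 higher. Cry1, a repressor of the clock, measured 25.1 to 48.1 CPM (median 31.8) at moderate and 15.8 to 23.8 CPM (median 17.1) at fortified folic acid. Its levels were separate (log2 fold change -0.85, SE 0.15, adjusted p = 0.00601), and the repressors Per2 (-0.84) and Ciart (-2.14) and the Clock-interacting Cipc (-0.84) fell too. Ciart overlapped between folic acid levels through moderate wild type 1.

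Gene lists of the cilium and of neural tube closure showed few calls. Of 63 cilium and CPLANE genes 7 (11.1%) were higher and 2 (3.17%) lower, with a median of -0.02, and 4 higher and 0 lower with the length trend removed. The transport subunit Ift20 rose by 0.78 and the small GTPase Arl3 by 0.53, with Arl3 separate in all 12 libraries but lost when the length trend was removed. The transition zone gene Cep290 fell by 0.84 and also lost its call with that trend removed. Among 32 genes of planar cell polarity and neural tube closure Vangl1 (0.55) was higher, a call lost when any 1 of 8 libraries was left out, and Lrp2 (-1.86) and Cited2 (-1.37), both lost without moderate mutant 3, were lower; without the 3 libraries that stand apart 3 were higher and 2 lower. Hedgehog signalling had 1 higher and 2 lower of 27 genes, and 7 higher and 2 lower without the 3 libraries that stand apart; its targets Gli1 (1.30, adjusted p = 0.0774) and Ptch1 (0.06, adjusted p = 0.915) did not pass. Of 52 Wnt genes 7 were higher and 4 lower, or 17 and 3 without the 3 libraries, including the secreted protein Dkk3 (1.59), which was called in wild type cells alone at 2.31, and the receptor Fzd7 (-0.71).

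Markers of other cell types had few calls, and their summed levels overlapped between folic acid levels in each list. Skeletal muscle markers had 0 of 22 genes called, with a median of -0.83 in wild type and 0.28 in mutant cells, and neuron markers had 1 of 18 lower (Map2, -0.81), with medians of -1.04 and 0.77. Their summed levels were 1772 to 5015 CPM against 924 to 5699 CPM for muscle and 235 to 657 CPM against 173 to 551 CPM for neuron markers. Macrophage and leukocyte markers had 0 of 14 called but 13 of 14 negative (median -0.38), with summed levels of 30.2 to 218 CPM and 40.1 to 197 CPM. Erythroid markers had 0 of 6 called, a median of -2.43 that was negative in both genotypes, and a sum of at most 25.8 CPM. Bone and tendon markers had 13 of 14 positive and 1 higher (median 0.49; 0.82 in wild type and -0.05 in mutant cells). Smooth muscle and pericyte markers had 8 of 9 positive and 2 (22.2%) higher (median 0.19), and cardiomyocyte markers 6 of 7 negative and 0 called (median -0.64). The part of these cells in the results was not tested. Xist was carried by all 6 mutant and 2 of 6 wild type libraries, namely moderate wild type 1 and fortified wild type 1. Y-linked genes had 7061 counts in moderate wild type 2, 10512 in moderate wild type 3 and 11000 in fortified wild type 3. Fortified wild type 2 had 9 Xist and 0 Y-linked counts, so Xist alone does not give the sex. A fit with Xist as a covariate called 2610 genes, of which 2407 were among the 2568.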

How the data were processed

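The authors deposited a table of expected counts (estimated counts per gene, 1 column per library, from salmon per the file names) and a table of TPM made from the same libraries. The build is mm10, per the submitters' processing notes. For salmon no version, and for the genes no annotation, is given in the sources used here. RNA was polyadenylated and libraries were made with the TECAN Universal Plus mRNA-Seq kit, per the labels' protocols. Columns were matched to libraries through the column numbers in the labels, which do not explain the letters in the column names.

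Expected counts were rounded to whole numbers, filtered with filterByExpr (minimum count 10, minimum total 15; 9093 genes removed) and scaled by TMM (factors 0.91 to 1.08). The main fit was edgeR 4.0.16 in R 4.3.3, quasi-likelihood, with terms for genotype and folic acid level over all 12 libraries. A second fit with a mean per group gave the contrasts within each genotype and the interaction. Adjusted p-values are Benjamini-Hochberg over the 15186 tested genes, with a threshold of 0.05. The common biological coefficient of variation was 0.336, large beside counting error at this depth. Alternatives used DESeq2 1.42.0, limma 3.58.1 (voom, and log2(TPM + 1) or log2(TPM + 0.1)), other scalings and filters, a test against 1.5-fold, an Xist covariate, removal of a spline (5 df) on transcript length, and each library left out. The script was tested on simulated counts.

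Named genes were the 15 largest changes in each direction with at least 5 mean CPM and separate libraries in both genotypes, the 5 smallest p, up to 3 per list, the 4 smallest interaction p, and 16 genes of folate, methylation and Hedgehog biology. Others named were chosen after their values were seen, as were 6 lists, the zinc finger symbols and the sterol regulatory element. A few of the genes named by the rule are not reported here. The members and lists were chosen with earlier results of these data known. Promoters came from RefSeq (GRCm38.p6) and gene positions from GENCODE M21. Relative transcript length, for the classes and the spline, was the median over libraries of log2 counts over TPM, centred within each library. It was thus derived from the deposited counts and TPM themselves.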

Additional observations from a re-analysis of the deposited data

How the results depend on the processing

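Against 2568 genes called for the average, a test against 1.5-fold called 11 and limma-voom with quality weights 4890; of the latter 4641 had the same sign in both genotypes, and all 11 of the former did. The other alternatives gave 2094 to 3799. Leaving out 1 library gave 1236 to 3982, the same for genes of like sign, with 3982 without moderate wild type 1, 1236 without moderate mutant 3, 1417 without fortified mutant 1, 1484 without fortified wild type 3 and 1506 without moderate mutant 2. The comparison of folic acid in wild type cells, with 4 calls, gave 80 without a low-count filter, 65 with the replicate block, 60 with the length trend removed, 1298 without the 3 libraries that stand apart, 1204 by DESeq2 and 17 by limma-voom, and 1 to 1012 with a library left out (1012 without moderate wild type 1). The comparison of folic acid in mutant cells, with 1053 calls, gave 559 with the replicate block, 85 with the length trend removed, 2395 by DESeq2, 5273 by limma-voom and 0 to 2073 with a library left out (0 without moderate mutant 1 or 2). The interaction, with 0 calls by edgeR, gave 8 by DESeq2. Of 239 called genes among those examined singly, 144 passed without each library in turn. The causes were not tested, except that the 1.5-fold test asks for a larger change. Same-numbered libraries did not deviate together in most pairs (r from -0.477 to 0.244 over 18 pairs, 4 over 0.1). With 3 libraries per group this cannot tell whether the numbers mark a pairing. The replicate block gave 2147 averaged calls.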

Other observations

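Several further gene groups moved in parts. In the list of S100, Ly6 and Crip genes and fibroblast surface proteins, 9 of 25 genes (36%) were higher at fortified folic acid and 2 (8%) lower by edgeR's quasi-likelihood test. In this list 84% of genes are in the shortest transcript class, and with the length trend removed 4 were higher and 2 lower. The calcium-binding S100a13 (1.65) and S100a10 (1.09) and the surface protein Thy1 (1.06) rose on the log2 scale, and the galactose-binding lectin Lgals3 fell by 1.83. Thy1 lost its call when any 1 of 8 libraries was left out, and Lgals3 without fortified mutant 1, moderate mutant 3 or moderate wild type 2. Of 26 NRF2 and antioxidant genes 6 (23.1%) were higher and 4 (15.4%) lower, or 3 and 4 with that trend removed. The peroxiredoxin Prdx1 (0.90) was higher, while the heme oxygenase Hmox1 (-1.36) and the thioredoxin reductase Txnrd1 (-0.79) were lower. In glycolysis and hypoxia 8 of 32 genes (25%) were higher and 3 (9.38%) lower. Its largest rise, Aldoc (2.03), and largest fall, Ndrg1 (-1.63), lost their calls when any 1 of 4 and 8 libraries was left out.

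Of 23 p53 targets 4 (17.4%) were lower and 0 higher, among them the p53 ligase Mdm2 (-0.78; not without moderate mutant 3) and the metabolic phosphatase Tigar (-0.59); without the 3 libraries that stand apart 9 were lower and 1 higher. Purine and pyrimidine synthesis had 3 of 30 genes higher and 4 lower, with a median of -0.03, and 0 higher and 1 lower with the length trend removed. Among growth factors of limb mesenchyme, Fgf10 measured 11.5 to 21.1 CPM (median 14.5) at moderate and 2.53 to 13.5 CPM (median 5.27) at fortified folic acid, a log2 fold change of -1.41 (adjusted p = 0.014 by edgeR) with overlap between levels. The Bmp antagonist Grem1 ran from 17.1 to 226 CPM (median 138) at moderate and from 9.07 to 21.7 CPM (median 15.6) at fortified folic acid, a log2 fold change of -3.12 (adjusted p = 0.00577). Of 38 Hox genes 3 were lower, Hoxb9 (-0.65), Hoxd9 (-0.83) and Hoxc13 (-0.85; lost when any 1 of 10 libraries was left out), and 0 higher; without the 3 libraries 3 were higher and 4 lower.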
